A study of Mus musculus with 12 samples.

Results

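The enzymes that break down amino acids in the liver were followed at the RNA level in livers of mice labelled as lacking the nuclear receptor LRH-1, which the gene Nr5a2 encodes, and in livers of control mice. The group was a list of 36 mouse gene symbols, each matched to its line in the deposited count tables, out of 24062 genes listed there. It was divided by substrate into aromatic (4 genes), tryptophan (6), transaminase (3), glycine (4), histidine (4), sulfur (2), proline and lysine (3) and branched-chain (10) genes. All 36 passed the filter on low counts, which left 12015 genes to test, and together they held 0.908% to 1.27% of the counts of a library.

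Bulk liver RNA of male mice, 14 weeks old and of a mixed 129SvEV-C57BL/6 background, was sequenced as 12 libraries. The animals of every group carried floxed Nr5a2 alleles (Nr5a2 fl). High-fat diet (HFD) knockouts (2 libraries) had received AAV8-Cre, an adeno-associated virus that delivers Cre recombinase chiefly to hepatocytes, and had eaten the diet D12492 for 6 weeks. HFD controls (4 libraries) carried the floxed alleles without Cre and ate the same diet. Standard diet (SD) knockouts (3 libraries) had received AAV8-Cre, and SD controls (3 libraries) had not. Both SD groups are listed with 6 weeks of diet as well. The series states that controls were infected with AAV8-eGFP, so a virus was given to both genotypes. This vector is known to spare most other liver cell types, and the labels do not say in words that each library came from a separate mouse.

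The liver is the main site where amino acids beyond the needs of protein synthesis are dismantled. Transaminases move the amino group to a shared acceptor, the carbon skeletons enter the citric acid cycle, glucose or ketone body formation, and the nitrogen leaves as urea. Tryptophan takes a route of its own, the kynurenine route, whose end branches either to complete oxidation or to NAD synthesis. Several of these genes are induced by fasting and glucocorticoids, and many are expressed in a zone of the liver lobule.

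The targeted gene gave no check of the labels, since its counts did not fall in knockouts. Nr5a2 had 69.1 and 84.5 CPM (counts scaled to the normalized library size) in HFD knockouts and 77.0, 74.5, 64.3 and 66.8 CPM in HFD controls. On SD it had 95.3, 100.1 and 94.7 CPM in knockouts and 84.4, 74.8 and 85.8 CPM in controls (adjusted p = 0.719 on HFD and 0.288 on SD, edgeR's quasi-likelihood test with Benjamini-Hochberg adjustment over all genes tested, as for every adjusted p here). The labels name no deleted exons, and each direction below rests on the labels. Total counts were 7463792 to 10875478 on HFD and 2371167 to 3404570 on SD, and the diets lay apart on the first principal component, which held 60.0% of the variance. Diet and sequencing depth therefore cannot be told apart. On the second component (11.3%) HFD control 1 lay at 3.34, between the HFD knockouts (20.6 and 24.4) and the other HFD controls (-18.8 to -11.8). For several members, and for the count of other pathway genes that passed, results without it are given as well. Hepatocyte markers (7 of 8 found) summed to 122410 to 169168 CPM in HFD knockouts and 103181 to 107564 CPM in HFD controls, without overlap. On SD they summed to 100432 to 152078 CPM in knockouts and 106032 to 135105 CPM in controls, which overlapped. Of the 7, 1 was higher in HFD knockouts and 0 passed on SD. On HFD 4 of the 7 had positive and 3 had negative log2 fold changes, with a median of 0.065. The albumin gene Alb alone held 13.68% and 10.02% of the counts of HFD knockouts and 7.58% to 8.45% of those of HFD controls. The separate sums on HFD therefore do not show that the 7 markers rose together. Lymphocyte markers summed to at most 6.14 CPM, and Cd79a had no count in SD libraries.

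Other cell types and zones moved with the genotype in part. Stellate cell markers (8 of 8 found) summed to 386 to 465 CPM in HFD knockouts and 260.1 to 393 CPM in HFD controls, and to 443 to 519 CPM in SD knockouts and 335 to 398 CPM in SD controls, with 0 of 8 past the test on either diet and 3 of 8, all higher, past it over both diets. Cholangiocyte markers (6 of 6 found) summed to 88.6 to 100.5 CPM in HFD knockouts and 27.6 to 106 CPM in HFD controls. On SD they summed to 65.0 to 197 CPM in knockouts and 51.4 to 53.9 CPM in controls. Of the 3 tested, 0 passed on either diet or over both. Kupffer cell markers (8 of 8 found) had sums that overlapped on both diets. Endothelial markers (8 of 8 found) summed to 299 to 310 CPM in HFD knockouts and 247 to 283 CPM in HFD controls, and overlapped on SD. In each of these last lists 0 of 8 passed on either diet or over both. Pericentral hepatocyte genes (10 of 10 found) summed to 10501 to 13445 CPM in HFD knockouts and 11706 to 17497 CPM in HFD controls, and to 9128 to 11662 CPM in SD knockouts and 12745 to 14318 CPM in SD controls, and 5 of 10 were lower in knockouts on HFD and 4 of 10 on SD. Periportal hepatocyte genes (10 of 10 found, 9 tested) summed to 5834 to 5881 CPM in HFD knockouts and 6002 to 6883 CPM in HFD controls, and to 7262 to 9514 CPM in SD knockouts and 6764 to 9406 CPM in SD controls. On HFD 1 of the 9 was higher and 2, Pck1 and Sds, were lower in knockouts, and on SD 1 was higher and 5 were lower. Of all genes tested, 1.04% were higher and 1.66% lower on HFD, and 1.44% were higher and 2.94% lower on SD. Malat1, a long RNA retained in the nucleus, held 1.58% to 1.79% of the counts of HFD knockouts and 1.13% to 1.37% of those of HFD controls. The part of these shifts in the results below was not tested, and in bulk RNA fewer cells of a type cannot be told apart from less RNA per cell.

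A minority of the 36 enzymes changed with the genotype. On HFD 4 changed, of which the histidine genes Amdhd1 and Uroc1 were higher and Got1 and Shmt1 lower in knockouts, beside 2.7% of all genes tested (1.04% higher, 1.66% lower). On SD 5 changed, of which Acmsd was higher and Got1, Haao, Tdo2 and Shmt1 were lower in knockouts, beside 4.38% of all genes tested (1.44% higher, 2.94% lower). Among the 7176 genes that averaged at least 10 CPM, 35 of them members, 3.46% passed on HFD and 6.54% on SD. With the knockout effect averaged over both diets 9 members changed (3 higher and 6 lower), beside 8.36% of all genes (3% higher, 5.36% lower) and 11.7% of the abundant ones. On HFD the count was 7 without HFD control 1 (3 higher, 4 lower), 2 without HFD knockout 2 and 0 without HFD knockout 1. On SD it was 2 without SD knockout 2, SD knockout 3, SD control 2 or SD control 3. The median log2 fold change of the members was -0.05 on HFD and -0.22 on SD, where all genes had -0.01 and 0. Knockouts and controls did not overlap for 8 higher and 7 lower members on HFD, where 10.3% of all genes were higher and 11.9% lower without overlap, and for 4 higher and 11 lower members on SD, where the shares were 10.3% and 12.3%.

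**Figure D1:**
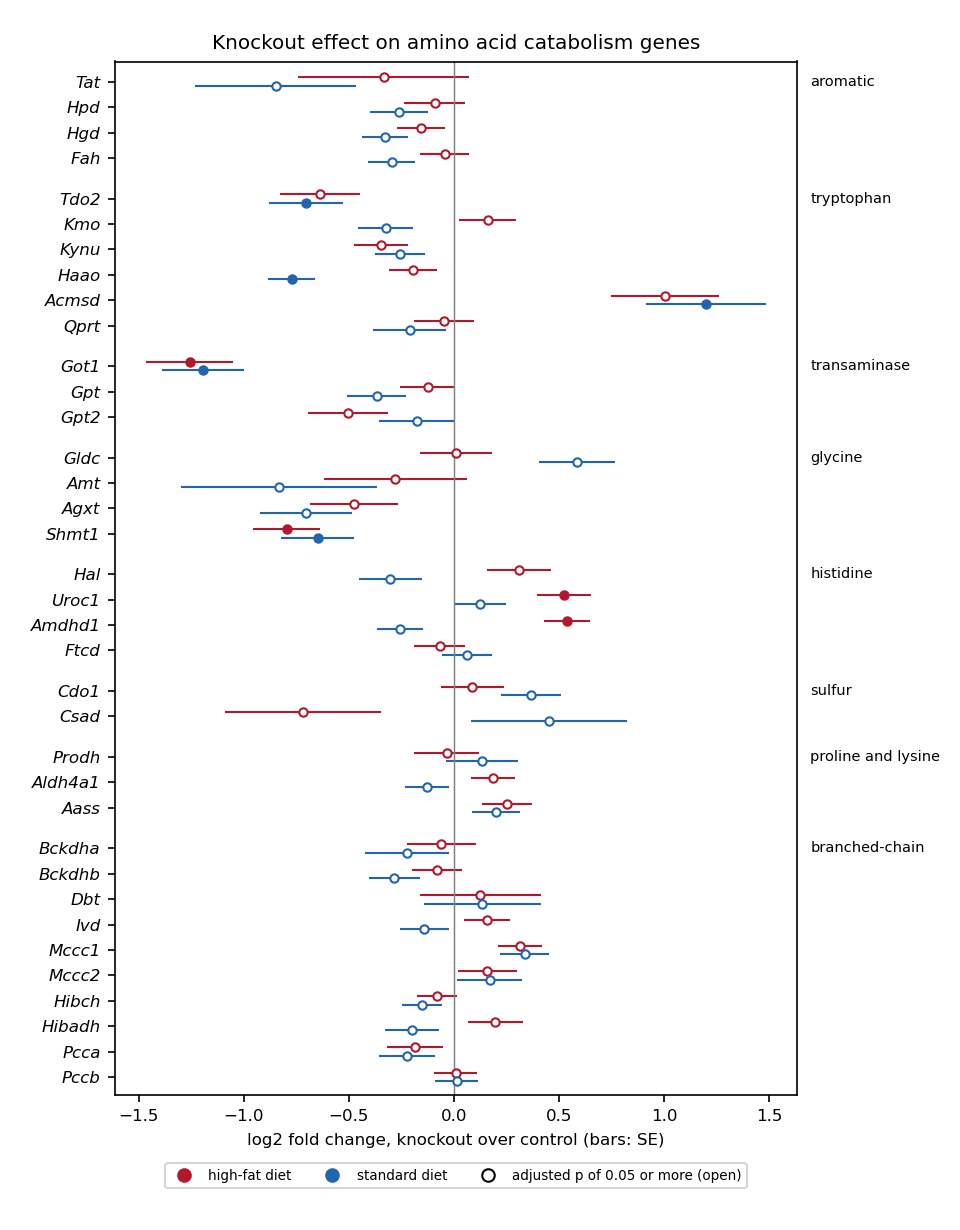
The plot gives the log2 fold change of knockout over control for each of the 36 genes, by route, with bars for the standard error, HFD in red and SD in blue; filled points passed at an adjusted p under 0.05. Got1 and Shmt1 are filled on both diets and lie left of 0, while Acmsd lies farthest to the right at 1.01 on HFD and 1.20 on SD.

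Got1, the cytosolic aspartate aminotransferase, fell most among the members on both diets. It stood at 154 and 177 CPM in HFD knockouts and at 256, 523, 409.9 and 398 CPM in HFD controls. On SD the levels were 145, 119 and 121 CPM in knockouts and 312, 266 and 302 CPM. Every knockout library lay below every control library of its diet, and HFD control 1 was the lowest control. Got1 was 2.39-fold lower on HFD (log2 fold change -1.26, SE 0.21, adjusted p = 0.00364) and 2.29-fold lower on SD (-1.19, SE 0.19, adjusted p = 0.00233). The call on SD held under every alternative run. On HFD it ended without HFD knockout 1 (-1.15, adjusted p = 0.0828), and it was -1.41 without HFD control 1. The alanine aminotransferases did not pass on either diet. Gpt, the cytosolic form, had a log2 fold change of -0.13 on HFD and -0.37 on SD, and Gpt2, the mitochondrial form, had -0.50 and -0.18.

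The promoters of Got1, Shmt1 and Haao are shown because these genes had the smallest p over both diets. Each line gives the 250 bases before the start site on the sense strand, from RefSeq on GRCm38.p6, at chr19:43524606-43524855 for Got1, chr11:60811266-60811515 for Shmt1 and chr17:83846791-83847040 for Haao, all on the minus strand. Capitals mark the nuclear receptor half-site AGGTCA or its reverse complement TGACCT.
Got1: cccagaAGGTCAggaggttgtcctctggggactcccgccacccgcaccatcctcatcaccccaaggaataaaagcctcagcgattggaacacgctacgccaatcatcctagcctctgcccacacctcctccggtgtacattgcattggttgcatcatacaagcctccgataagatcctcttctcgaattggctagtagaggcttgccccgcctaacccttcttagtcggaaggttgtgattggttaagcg
Shmt1: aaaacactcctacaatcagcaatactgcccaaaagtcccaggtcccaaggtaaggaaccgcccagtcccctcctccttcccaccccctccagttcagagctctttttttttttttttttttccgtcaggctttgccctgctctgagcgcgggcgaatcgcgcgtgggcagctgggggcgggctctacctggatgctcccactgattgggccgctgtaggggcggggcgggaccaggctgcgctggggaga
Haao: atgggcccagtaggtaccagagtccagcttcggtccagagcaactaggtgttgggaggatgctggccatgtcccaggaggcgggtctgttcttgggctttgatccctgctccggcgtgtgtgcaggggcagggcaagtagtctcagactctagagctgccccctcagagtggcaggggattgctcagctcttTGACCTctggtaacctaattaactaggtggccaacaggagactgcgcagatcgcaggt

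The letters NCAAGGNCA, the extended half-site that LRH-1 is known to bind, occurred on neither strand in these windows, searched from 250 bases before to 50 bases after the start site. They were found in 2 of the 32 members with a window, Csad and Ivd (6.25%), and in 7.61% of the 27025 genes with a window. AGGTCA, which is also the end of that motif where its second N is T, was in the Got1 window at -244 on the sense strand and in the Haao window at -58 on the other strand, counted from the start site, and not in the Shmt1 window. It was in 11 of the 32 members (34.4%) and in 18.1% of all genes with a window, and this search was chosen after the sequences had been seen. These are matches of letters and not measured sites.

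Among the glycine genes, Shmt1 fell on both diets. Shmt1 encodes the cytosolic serine hydroxymethyltransferase, which interconverts serine and glycine while loading folate with a carbon unit. It stood at 42.4 and 42.5 CPM in HFD knockouts and at 71.4, 91.6, 58.4 and 73.7 CPM in HFD controls. SD knockouts had 24.998, 26.0 and 29.3 CPM and SD controls had 37.9, 49.4 and 38.8 CPM. The groups did not overlap on either diet, and the HFD knockouts lay within the range of the SD controls. Shmt1 changed by -0.80 on the log2 scale on HFD (SE 0.16, adjusted p = 0.0127) and -0.65 on SD (SE 0.17, adjusted p = 0.0471). On HFD the call ended without HFD knockout 1 (adjusted p = 0.138), without HFD knockout 2 (adjusted p = 0.0842) and with only the HFD groups in the fit (adjusted p = 0.0604). On SD it ended without any 1 of the 6 SD libraries (adjusted p = 0.0531 to 0.18) and at the depth of the smallest library (adjusted p = 0.0675), while over both diets it held throughout (-0.72, SE 0.12, adjusted p = 0.00113). Shmt1 overlaps the gene Smcr8 on the opposite strand by 184 exon bases in GENCODE, and the strand setting of the counting is not given in the sources used here.

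Agxt, the alanine-glyoxylate aminotransferase that clears glyoxylate, passed over both diets together and on neither diet alone in the fit of all libraries. It stood at 44.3 and 61.2 CPM in HFD knockouts and at 45.9, 79.7, 92.6 and 76.6 CPM in HFD controls, against 38.3, 38.8 and 43.9 CPM in SD knockouts and 58.6, 68.7 and 69.9 CPM in SD controls. The SD groups did not overlap, whereas HFD control 1 lay among the HFD knockouts. The log2 fold change was -0.48 on HFD (adjusted p = 0.311), -0.70 on SD (adjusted p = 0.0878) and -0.59 over both (SE 0.15, adjusted p = 0.0248). Without HFD control 1 it was -0.64 on HFD (adjusted p = 0.0176), the only 1 of 12 alternative runs on HFD that passed. Over those 12 runs it lay between -0.73 and -0.22. On SD it passed without the filter on low counts (adjusted p = 0.0146) and with only the SD groups in the fit (adjusted p = 0.00568). The call over both diets ended without SD knockout 1 (adjusted p = 0.0554), SD knockout 2 (0.0616), SD control 2 (0.0558), SD control 3 (0.0653) or HFD knockout 1 (0.126). The glycine cleavage genes did not pass on either diet. Gldc, its decarboxylase, had 0.01 on HFD and 0.59 on SD (adjusted p = 0.0878, against 0.0465 without the filter on low counts and 0.0374 without SD control 1, where it was 0.78), and Amt, its aminomethyltransferase, lay at 2.33 to 7.33 CPM over all libraries with SEs of 0.34 and 0.47.

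**Figure D2:**
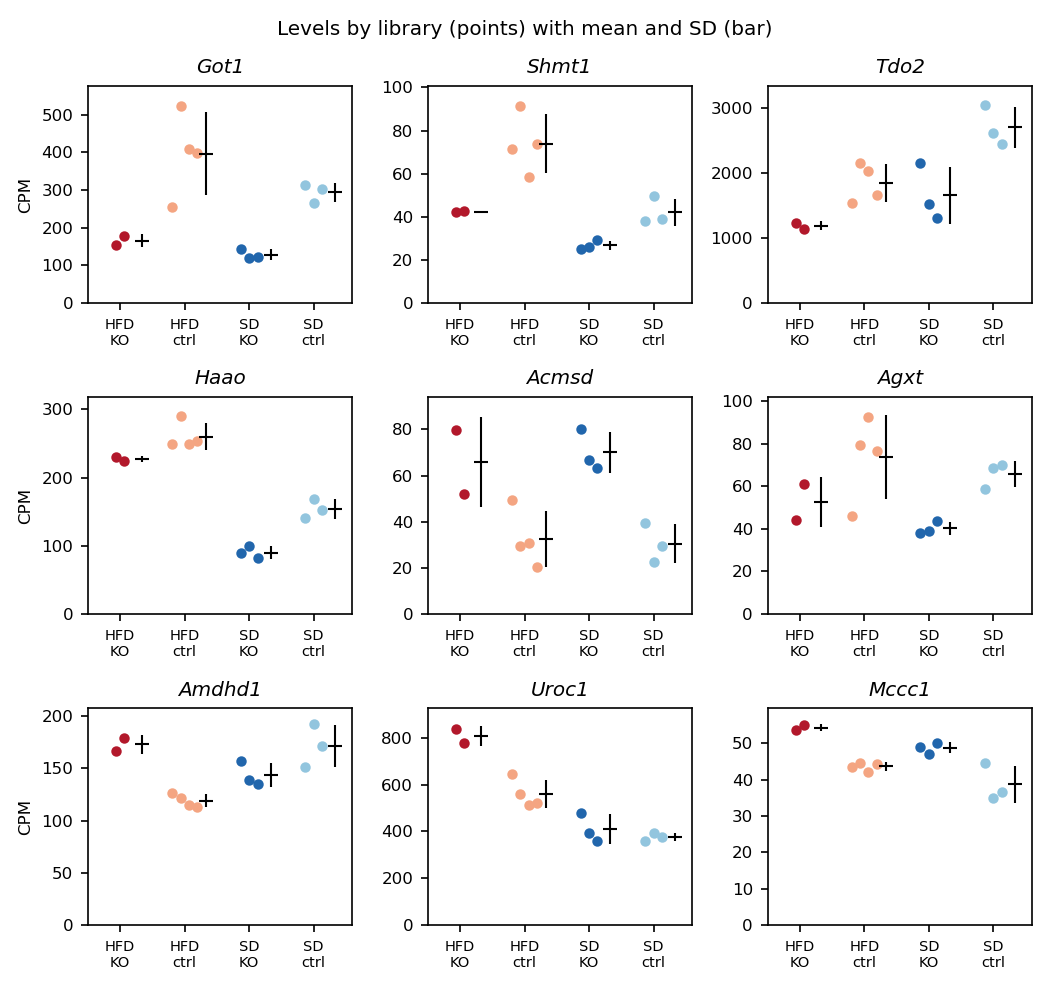
Each panel plots CPM of a gene in every library (points) with the group mean and standard deviation (bar) for HFD knockout (KO), HFD control (ctrl), SD knockout and SD control livers, on axes that start at 0. Got1 and Shmt1 lie lower in knockouts than in controls on both diets, and Acmsd lies higher, at 52.1 CPM or more in every knockout and at 49.4 CPM or less in every control.

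In the kynurenine route of SD knockouts the first and a late enzyme fell while the branch enzyme Acmsd rose. Tdo2, the tryptophan dioxygenase that opens the route, stood at 1237 and 1139 CPM in HFD knockouts and at 1544, 2152, 2031 and 1659 CPM in HFD controls. SD knockouts had 2155, 1522 and 1310.4 CPM and SD controls 3057, 2617 and 2447 CPM. No knockout library reached a control of its diet. Its change on the log2 scale was -0.64 on HFD (SE 0.19, adjusted p = 0.0968) and -0.70 on SD (SE 0.17, adjusted p = 0.0315). Over both diets it was -0.67 (SE 0.13, adjusted p = 0.00397), a call that held under every alternative run. The SD call ended without SD knockout 2 (adjusted p = 0.139), SD knockout 3 (0.152), SD control 1 (0.0984), SD control 2 (0.0716) or SD control 3 (0.0654). On HFD it passed without HFD control 1 (-0.71, adjusted p = 0.0454), with DESeq2 (adjusted p = 0.0327) and without the filter on low counts (adjusted p = 0.0174). In the other 9 of 12 alternative runs on HFD Tdo2 did not pass. Over all 12 its log2 fold change lay between -0.71 and -0.55.

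Kmo and Kynu, the hydroxylase and the hydrolase of the middle of the route, did not pass on either diet. Kmo stood at 397 to 515 CPM in HFD knockouts and 359 to 477 CPM in HFD controls, and at 276 to 314 CPM in SD knockouts and 339.7 to 376 CPM in SD controls, so the groups overlapped on HFD and not on SD. Kynu stood at 324 and 334 CPM in HFD knockouts and at 416, 502, 362 and 394 CPM in HFD controls, and at 381, 359 and 349 CPM in SD knockouts and 473, 418 and 409 CPM in SD controls. Its groups overlapped on neither diet, and over both it was lower by a small amount (-0.30, SE 0.09, adjusted p = 0.0444). That call ended without any single library other than HFD control 1 and HFD control 3 (adjusted p = 0.0553 to 0.145).

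Haao, the dioxygenase that makes the last intermediate before the branch, stood at 231 and 224 CPM in HFD knockouts and at 249, 289.7, 249 and 253 CPM in HFD controls. On SD it stood at 89.0, 100.1 and 81.5 CPM in knockouts and at 141, 169 and 152 CPM in controls. The HFD groups were separate but close, and the SD groups were far apart for their spread. The log2 fold change was -0.19 on HFD (SE 0.11, adjusted p = 0.495) and -0.77 on SD (SE 0.11, adjusted p = 0.0011), and the SD call held under every alternative run. The difference of these effects, HFD minus SD, was 0.58 (95% interval 0.24 to 0.92, adjusted p = 0.42), so the effect was not shown to differ between diets.

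Acmsd, the decarboxylase that turns the branch toward oxidation and away from NAD synthesis, stood at 79.8 and 52.1 CPM in HFD knockouts and at 49.4, 29.7, 30.7 and 20.4 CPM in HFD controls. In SD knockouts it stood at 80.0, 66.8 and 63.4 CPM, and in SD controls at 39.4, 22.5 and 29.6 CPM. The groups did not overlap on either diet, but HFD control 1 came close to HFD knockout 2. It was 2.01-fold higher on HFD (log2 fold change 1.01, SE 0.26, adjusted p = 0.0512) and 2.30-fold higher on SD (1.20, SE 0.29, adjusted p = 0.0257). Over both diets it was 1.10 (SE 0.19, adjusted p = 0.00195) and passed under every alternative run. The SD call ended without SD knockout 1 (adjusted p = 0.0895), SD knockout 2 (0.0652), SD knockout 3 (0.0613), SD control 2 (0.123) or SD control 3 (0.119). On HFD it passed without HFD control 1 (1.29, adjusted p = 0.00242) and with DESeq2 (adjusted p = 0.0188). The same held without the filter on low counts (0.00207) and at the depth of the smallest library (0.0165). Without HFD knockout 2 the log2 fold change was 1.29. Of 12 alternative runs on HFD, 6 left Acmsd short of the threshold, and over all 12 its log2 fold change lay between 0.67 and 1.29. Qprt, which takes the other branch to NAD, had -0.05 on HFD and -0.21 on SD and did not pass. Acmsd overlaps the listed gene 2900009J06Rik on the opposite strand by 94 exon bases.

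**Figure D3:**
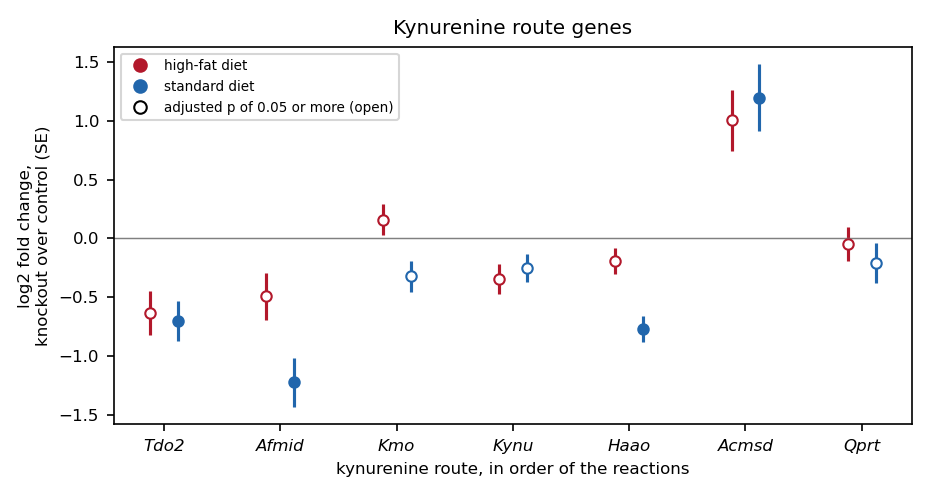
The plot gives the log2 fold change of knockout over control (bars: standard error) of kynurenine route genes in the order of their reactions, HFD in red and SD in blue, filled where the adjusted p was under 0.05. Afmid, which is not one of the 36 members, is included for its place in the route; Acmsd lies above 0 on both diets while Tdo2, Afmid, Kynu and Haao lie below it.

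The histidine genes, which act in sequence from the ammonia lyase Hal through Uroc1 and Amdhd1 to Ftcd, were higher in HFD knockouts in the middle of the sequence. Amdhd1, the imidazolonepropionase, stood at 167 and 179 CPM in HFD knockouts and at 126, 122, 115 and 113 CPM in HFD controls. In SD knockouts it stood at 157, 139 and 135 CPM, and in SD controls at 151, 192 and 171 CPM. The HFD groups were separate and the SD groups overlapped. The log2 fold change was 0.54 on HFD (SE 0.11, adjusted p = 0.0141) and -0.25 on SD (SE 0.11, adjusted p = 0.235). The HFD call ended without HFD knockout 1 (adjusted p = 0.0816), without HFD knockout 2 (0.106) and at the depth of the smallest library (0.0648).

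Uroc1, the urocanate hydratase before it, stood at 837 and 777 CPM in HFD knockouts and at 647, 560.2, 514 and 522 CPM in HFD controls. In SD knockouts it stood at 479, 392 and 357 CPM, and in SD controls at 357, 394 and 375 CPM. The HFD groups did not overlap, and on SD only knockout 1 lay above the controls. Uroc1 had a log2 fold change of 0.53 on HFD (SE 0.13, adjusted p = 0.0371) and 0.13 on SD (SE 0.12, adjusted p = 0.677). The HFD call ended without any single HFD library other than HFD control 1 (adjusted p = 0.0835 to 0.303) and with only the HFD groups in the fit (0.0984). Over both diets it was 0.33 (adjusted p = 0.0346), a call that ended without any single library other than SD knockout 3 and HFD control 1 (adjusted p = 0.0508 to 0.128). Hal stood at 231 and 239 CPM in HFD knockouts and 182 to 196 CPM in HFD controls, and at 168 to 246 CPM in SD knockouts and 194 to 289 CPM in SD controls, with log2 fold changes of 0.31 (adjusted p = 0.383) and -0.30 (adjusted p = 0.313). Ftcd, the last enzyme, had -0.07 and 0.06.

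No aromatic gene passed on either diet, although all 4 had negative log2 fold changes on both. Tat, the tyrosine aminotransferase and a glucocorticoid-induced gene, varied widely within groups. It stood at 877 and 814 CPM in HFD knockouts and at 1219, 1161, 1131 and 755 CPM in HFD controls. SD knockouts ranged over 1147, 425 and 399.9 CPM and SD controls over 1844, 598 and 1107 CPM. The first library of each of the 4 groups was the highest of its group, and knockouts and controls overlapped on both diets. Tat had a log2 fold change of -0.33 on HFD (SE 0.41, adjusted p = 0.8) and -0.85 on SD (SE 0.38, adjusted p = 0.261). Without SD knockout 1 the SD value was -1.52 and passed (adjusted p = 0.0241), and without SD control 1 it was -0.37. The later steps varied less. Hpd, the hydroxyphenylpyruvate dioxygenase, stood at 967 and 909.7 CPM in HFD knockouts, 839, 1195, 932 and 1035 CPM in HFD controls, 549, 413 and 419 CPM in SD knockouts and 559, 555 and 541 CPM in SD controls. Its log2 fold changes were -0.09 and -0.26. Hgd, the homogentisate dioxygenase, had -0.16 on HFD and -0.33 on SD (adjusted p = 0.113) and passed over both diets with DESeq2 (-0.24, adjusted p = 0.0389), and Fah, the final hydrolase, had -0.04 and -0.30.

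**Figure D4:**
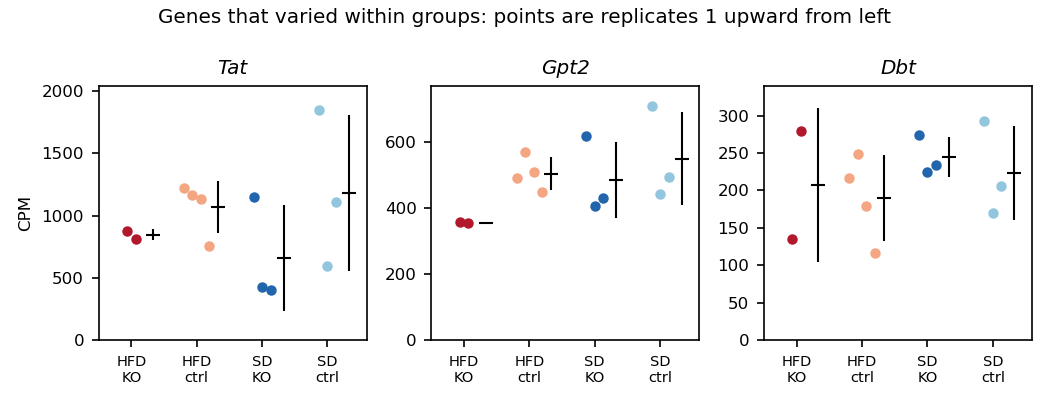
The panels plot CPM of Tat, Gpt2 and the branched-chain gene Dbt in every library, with replicates from left to right in the order of their numbers and the group mean and standard deviation beside them. Tat spans 399.9 to 1147 CPM within the SD knockouts and 598 to 1844 CPM within the SD controls, while Gpt2 in both HFD knockouts lies below all HFD controls.

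Gpt2, which was among the most abundant members, stood at 356 and 355 CPM in HFD knockouts and at 492, 567, 508 and 448 CPM in HFD controls, against 617, 405 and 431 CPM in SD knockouts and 707, 442 and 494 CPM in SD controls. The groups were separate on HFD (adjusted p = 0.216) and overlapped on SD (adjusted p = 0.678). Over both diets Gpt2 passed without SD knockout 1 (-0.44, adjusted p = 0.0351). A processed pseudogene, Gm5049, matches 1328 bases of Gpt2 at 92.2% identity, so reads may have been lost or shared. The same holds for the members Hibch (Gm7512, 1124 bases at 92.6%) and Hibadh (Gm11225, 855 bases at 91.7%). The member Aldh4a1 overlaps Gm21969 on the same strand by 1595 exon bases.

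The sulfur genes did not pass either. Cdo1, the cysteine dioxygenase, had the highest level per length of all members, at 1157 CPM per kb of exon in HFD knockouts, 1088 in HFD controls, 1334 in SD knockouts and 1035 in SD controls. Tdo2 followed with 306, 476, 428 and 698 CPM per kb in the same 4 groups. Cdo1 stood at 1982 and 1821 CPM in HFD knockouts, 1660.5, 1974, 1614 and 1909.7 CPM in HFD controls, 2699, 2131 and 1748 CPM in SD knockouts and 1741, 1655 and 1709 CPM in SD controls. Its groups were separate on SD, where SD knockout 1 was highest, with a log2 fold change of 0.37 (adjusted p = 0.185), against 0.09 on HFD. Csad, the cysteine sulfinate decarboxylase of taurine synthesis and a bile acid-regulated gene in mice, had -0.72 on HFD (SE 0.37, adjusted p = 0.421) and 0.45 on SD (SE 0.37, adjusted p = 0.596). Its levels were 18.9 and 11.8 CPM in HFD knockouts and 21.1, 11.9, 45.6 and 21.7 CPM in HFD controls, and 36.7, 43.6 and 35.5 CPM in SD knockouts and 31.2, 31.8 and 22.0 CPM in SD controls. Csad overlaps Zfp740 on the opposite strand by 278 exon bases.

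The 10 branched-chain genes stayed under the threshold on both diets, and the spread still allowed moderate changes for some. The smallest adjusted p was 0.155 on HFD and 0.123 on SD, both for Mccc1. The 95% intervals of the 10 genes lay between -0.48 and 0.74 on HFD and between -0.65 and 0.73 on SD on the log2 scale, so 2-fold changes lay outside all of them. Bckdha, Bckdhb and Dbt, the subunits of the branched-chain keto acid dehydrogenase that commits these amino acids to breakdown, had -0.06, -0.08 and 0.13 on HFD and -0.22, -0.28 and 0.14 on SD. Bckdha values are uncertain, since it overlaps B3gnt8 on the opposite strand by 1171 exon bases and shares 490 identical bases with a transcript of that gene. Dbt ranged from 135 to 280.0 CPM in HFD knockouts and from 116 to 249 CPM in HFD controls. Mccc1, a subunit of the carboxylase in leucine breakdown, stood at 53.6 and 55.0 CPM in HFD knockouts and 43.6, 44.6, 42.0 and 44.5 CPM in HFD controls, and at 49.0, 47.2 and 50.2 CPM in SD knockouts and 44.5, 35.0 and 36.6 CPM in SD controls. Every knockout lay above every control of its diet, and over both diets Mccc1 rose slightly (0.33, SE 0.08, adjusted p = 0.0167). That call ended without SD control 3 (adjusted p = 0.0523), without HFD knockout 2 (0.0503) and at the depth of the smallest library (0.0968). On SD alone it passed without SD control 1 (0.45, adjusted p = 0.0469). Mccc1 overlaps the listed antisense gene Mccc1os by 198 exon bases. Its partner Mccc2 had 0.16 on HFD and 0.17 on SD. Ivd of leucine breakdown, Hibch and Hibadh of valine breakdown, and the propionyl-CoA carboxylase subunits Pcca and Pccb lay between -0.18 and 0.20 on HFD and between -0.22 and 0.01 on SD. Pcca overlaps Ggact on the opposite strand by 241 exon bases.

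The proline and lysine genes did not pass on either diet. Prodh, the proline dehydrogenase, had -0.03 on HFD and 0.13 on SD, and Aldh4a1, which follows it, had 0.19 and -0.13. Aass, which opens lysine breakdown, stood at 469 and 482 CPM in HFD knockouts and 371 to 428 CPM in HFD controls, with overlap on SD, and had 0.25 and 0.20.

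Other genes of the same pathways form a list of 56, of which 53 could be tested. On HFD 7 changed (1 higher, 6 lower), and on SD 13 changed (2 higher, 11 lower), beside the 2.7% and 4.38% of all genes given above. Their median log2 fold change was -0.15 on HFD and -0.23 on SD. Oat, which links ornithine to proline and glutamate and is a pericentral gene, fell most. It stood at 164 and 124 CPM in HFD knockouts and 621, 1297, 538 and 759 CPM in HFD controls (-2.48, SE 0.30, adjusted p = 0.000314), with no overlap. The glycine and sulfur genes Gnmt (-1.48 on HFD and -1.27 on SD), Cth (-0.94 and -1.48) and Sds (-0.95 and -1.01) passed on both diets. Gnmt methylates glycine, Cth makes cysteine from cystathionine, and Sds deaminates serine. Cth stood at 121 and 137 CPM in HFD knockouts and at 156, 307, 262 and 264 CPM in HFD controls, with HFD control 1 again the lowest control. That library was also the lowest HFD control for Gnmt, at 234 CPM. On HFD 10 of the 53 passed without HFD control 1, and 3 to 5 passed without any other single HFD library. On SD 8 passed without SD knockout 3, and 9 to 13 without any other single SD library.

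Among the other genes of the aromatic route, Qdpr, the dihydropteridine reductase, fell on both diets (-0.67 on HFD, adjusted p = 0.0215, and -1.30 on SD, adjusted p = 0.000128). It had 73.8 and 90.5 CPM in HFD knockouts and 127, 156, 128 and 112 CPM in HFD controls, with no overlap. In the kynurenine route Afmid, the formamidase between Tdo2 and Kmo, fell on SD (-1.23, adjusted p = 0.00318, against -0.49 on HFD, adjusted p = 0.262), and HFD control 1 at 75.1 CPM lay beside the HFD knockouts at 73.2 and 72.3 CPM. Of the aminotransferases at the side of that route, Ccbl1 (an older symbol of Kyat1) fell on HFD (-1.26, adjusted p = 0.00734, against -0.47 on SD) and Aadat rose on SD (0.65, adjusted p = 0.0147, against 0.28 on HFD). For Ccbl1, HFD control 1 was the lowest HFD control at 44.2 CPM, with the HFD knockouts at 34.2 and 24.2 CPM. Sardh and Aldh1l1, which handle carbon units from sarcosine and folate, and Tst, which acts on sulfide products, fell on SD (-0.995, -0.66 and -0.55) with -0.42, -0.38 and -0.33 on HFD.

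Whether the knockout effect differed between diets was tested as HFD minus SD. It passed for 0 of the 36 members and for 0% of all genes in edgeR, with an unadjusted p under 0.05 for 9 members and 911 genes. Amdhd1 had the smallest p among the members (difference 0.79, SE 0.16, 95% interval 0.46 to 1.12, adjusted p = 0.291). DESeq2 called Amdhd1 alone among the members (adjusted p = 0.005) and 7 genes in all. Hal, the gene at the start of that sequence, had a difference of 0.61 (adjusted p = 0.544) and Uroc1 one of 0.40 (adjusted p = 0.633). For Got1 the difference was -0.06 (95% interval -0.65 to 0.52) and for Tdo2 0.07 (95% interval -0.47 to 0.60), intervals that leave room for differences of moderate size.

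Between the diets, more members were higher on HFD than lower, in both genotypes. In HFD knockouts against SD knockouts 11 members changed (10 higher, 1 lower), beside 26.6% of all genes (14.9% higher, 11.7% lower) and 33.8% of the abundant ones, and in HFD controls against SD controls 13 changed (9 higher, 4 lower), beside 30.1% (16.5% higher, 13.6% lower) and 38.3%. The totals of 11 and 13 of 36 members lay near the undirected shares. Rn45s, a precursor of ribosomal RNA, held 0.985% to 1.32% of the counts of an HFD library and 0.291% to 0.460% of those of an SD library. Malat1 held 0.677% to 1.07% in SD knockouts and 0.461% to 0.689% in SD controls, below the HFD values given above, and both genes passed as higher on HFD in both genotypes. The part of RNA quality or library content in the diet results was not tested. Prodh had the largest rise in controls, with 112, 111, 94.1 and 105 CPM in HFD controls against 41.8, 43.8 and 46.1 CPM in SD controls (1.26, SE 0.15, adjusted p = 1.39e-05), and in knockouts it had 1.09 (adjusted p = 0.000218). Haao had the largest rise in knockouts (1.34, SE 0.12, adjusted p = 6.28e-07), with 0.76 in controls. Gpt (1.16 in knockouts and 0.92 in controls), Qprt (1.16 and 0.99), Hpd (1.03 and 0.86), Uroc1 (0.98 and 0.58), Bckdha (0.67 and 0.51) and Shmt1 (0.67 and 0.81) were higher on HFD in both genotypes. Tdo2 (-0.55), Amdhd1 (-0.53), Hibadh (-0.43) and Hal (-0.39) were lower in HFD controls, and Csad (-1.34) was lower in HFD knockouts. Pccb in controls and Kmo and Ivd in knockouts were higher by 0.30, 0.65 and 0.46. In knockouts the call of Kmo ended without HFD knockout 1 (adjusted p = 0.0622), that of Ivd without SD knockout 3 (0.0548) or HFD knockout 2 (0.056), that of Bckdha without SD knockout 2 (0.0553), HFD knockout 1 (0.0522) or HFD knockout 2 (0.0772) and at the depth of the smallest library (0.38, adjusted p = 0.304), and that of Csad without SD knockout 1 (0.0515), SD knockout 2 (0.0665) or HFD knockout 2 (0.174). In controls that of Tdo2 ended without SD control 1 (0.0865), that of Hibadh without SD control 2 (0.0549), that of Pccb without SD control 1 (0.0691) or SD control 3 (0.066), that of Bckdha without SD control 1 (0.15), SD control 3 (0.0546) or HFD control 4 (0.0711) and with only the controls in the fit (0.0608), and that of Hal without any single control other than SD control 1 (0.0553 to 0.229) and at the depth of the smallest library (0.0516). Got1 passed in controls without HFD control 1 (0.60, adjusted p = 0.00245), and without the filter on low counts Got1 (0.0199), Gldc (0.0308) and Ftcd (0.0409) passed in controls.

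**Figure D5:**
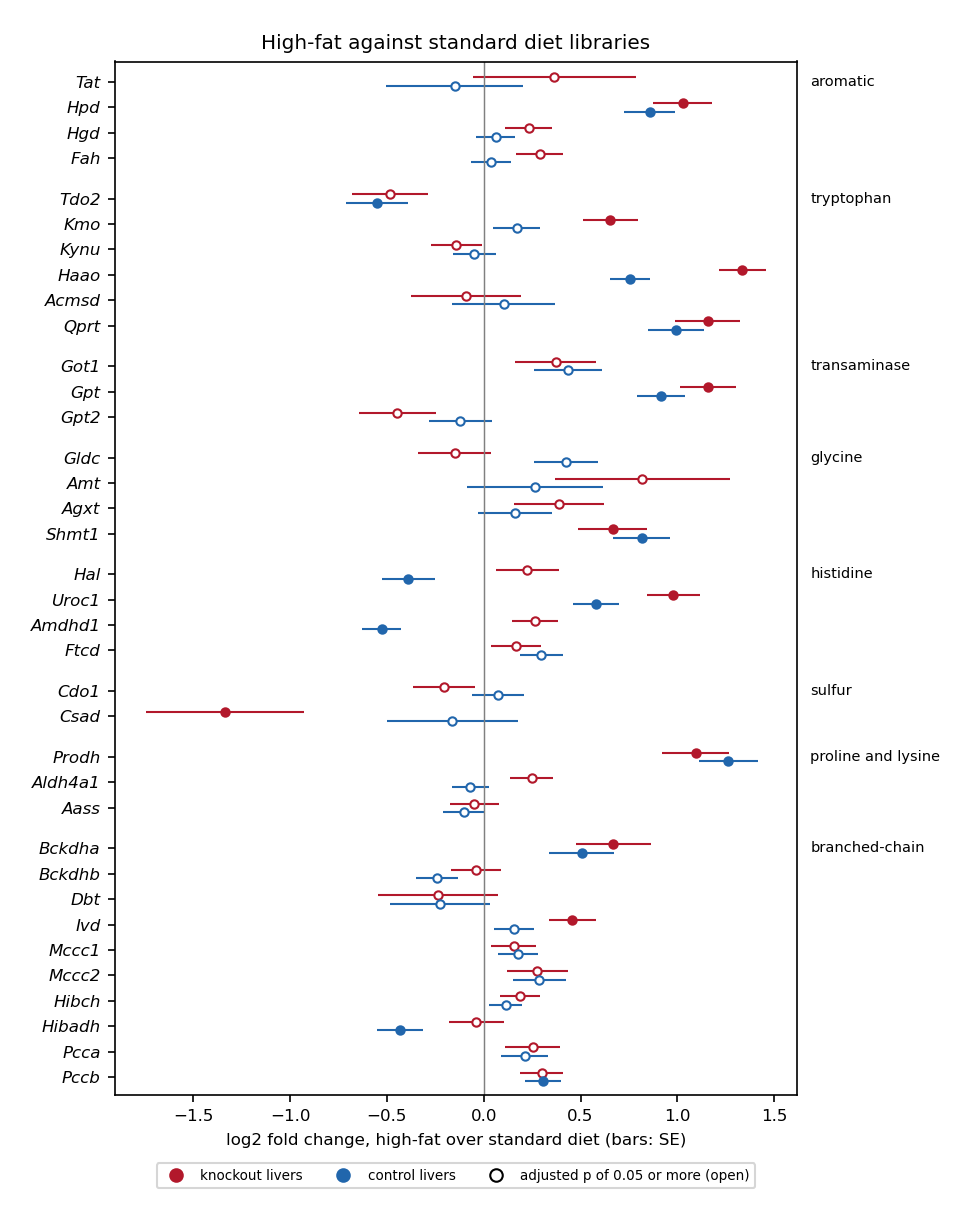
The plot gives the log2 fold change of HFD over SD for each of the 36 genes, by route, with bars for the standard error, knockout livers in red and control livers in blue; filled points passed at an adjusted p under 0.05. Prodh, Haao, Gpt, Qprt, Hpd, Uroc1, Shmt1 and Bckdha are filled to the right of 0 in both genotypes, and Csad at -1.34 in knockouts lies farthest to the left.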

How the data were processed

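The values deposited by the authors were raw gene counts, 1 table for each of 12 libraries. Per the labels' protocols, Trizol RNA of frozen liver went into a Nugen Ovation library kit. The submitters' processing notes name TopHat2 2.1.0, HTSeq, DESeq2 1.14.1 and the build mm9. Strand setting and treatment of multiply mapped reads: not given in the sources used here. Samples were grouped by the labels, and p-values measure the spread between libraries, which may be technical in part.

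The test was edgeR 4.0.16's two-sided quasi-likelihood test (R 4.3.3) after TMM normalization and filterByExpr (minimum count 10), on 4 group means fitted to all 12 libraries together. Benjamini-Hochberg adjustment ran over 12015 genes, and a gene passed under 0.05. CPM values use normalized library sizes, and standard errors come from the test statistic. No deposited table held a column of other samples. Counts limit precision most on SD, at 2371167 to 3404570 counts a library. The procedure was tested on simulated counts. These held no difference between the diets, unlike the data, and no statement here rests on that test.

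The members and gene lists were chosen with earlier results of these data known. Named genes were all members, Nr5a2, and the 12 other pathway genes with the smallest p among those called. The result of 1 of those 12 is not reported here. Values per library are given for members called in a knockout comparison and the 6 most abundant and, chosen after their values were seen, for Csad in all groups and Prodh in controls. Promoters came from RefSeq (GRCm38.p6), and exon lengths and overlaps from GENCODE. The fits were repeated with DESeq2 1.42.0, with RLE scaling, without the filter, with only the groups compared, after thinning to the smallest library, with the replicate number as a block, and without each library in turn; leaving out 1 HFD knockout leaves a lone library, assumed to vary like the other groups. The background among genes of at least 10 CPM and the AGGTCA search were added after the data were seen.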

Additional observations from a re-analysis of the deposited data

Results flagged for a closer look

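In the HFD controls, the only group of at least 4 libraries, a gap test was run on each of the 36 members. It set apart 2 values, close to the number that chance alone gives at about 1 in 20 tests. Haao in HFD control 2 (289.7 CPM, the others at 249 to 253 CPM) had a gap of 0.893 of the group's range, and Ftcd in HFD control 3 (281 CPM, the others at 218 to 227 CPM) had a gap of 0.852.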

How the results depend on the processing

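No result of the members changed its direction under any alternative run where it had passed. Of the members called, those that passed under every alternative numbered 2 of 5 on SD (Got1 and Haao), 0 of 4 on HFD, 5 of 9 over both diets (Got1, Shmt1, Haao, Tdo2 and Acmsd), 8 of 13 between diets in controls and 7 of 11 in knockouts. With each library left out in turn, the members called ranged from 2 to 5 on SD, 0 to 7 on HFD, 5 to 9 over both diets, 11 to 13 for the diets in controls and 8 to 13 in knockouts, and the other pathway genes called ranged from 8 to 13 on SD and 3 to 10 on HFD. On HFD the count was 0 without HFD knockout 1, 2 without HFD knockout 2 and 7 without HFD control 1. On SD it was 2 without SD knockout 2, SD knockout 3, SD control 2 or SD control 3, and over both diets it was 5 without SD control 3. With only the groups compared in the fit, 2 members and 2 other pathway genes passed on HFD, where fewer libraries estimate the spread. DESeq2 called 1 member for the difference between diets. What a replicate number marks is not given in the labels. Deviations of same-numbered libraries from their group means correlated at 0.05, 0.04 and -0.01 on SD and 0.12 and 0.01 on HFD. With 2 HFD knockouts these deviations mirror each other (0.12 and -0.12 against HFD control 1). The correlations therefore cannot decide whether the replicate number pairs libraries. With the number as a replicate block, 8 members passed on SD and 4 on HFD. HFD controls 3 and 4 have no knockout of the same number. Under the block the HFD effect therefore compared the 2 HFD knockouts with HFD controls 1 and 2 alone, also within the mean over both diets. On SD it added Tat (adjusted p = 0.00425), Agxt (0.00567) and Gldc (0.016). On HFD the number was unchanged but the set was not: Got1 and Shmt1 passed, Amdhd1 (0.137) and Uroc1 (0.223) did not, and Acmsd (0.0163) and Gpt2 (0.0366) did. Over both diets Uroc1 (0.119) and Mccc1 (0.0629) no longer passed, while Tat (0.00326) and Gpt2 (0.0152) did. The block lies within each diet, so it could not be fitted for comparisons between diets. Low-count genes such as Amt (2.33 to 7.33 CPM) are limited by depth.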

Other observations

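A list of 12 glucocorticoid and fasting genes, of which 11 could be tested, was read beside Tat. On HFD 0 were higher and 2 lower in knockouts, namely Pck1 of glucose synthesis (-1.02, adjusted p = 0.0139 from edgeR) and Sds. Both were already counted among the periportal genes, and Sds also among the other pathway genes. On SD 1 was higher, Fkbp5 (1.42, adjusted p = 0.0225), and 2 were lower, Igfbp1 (-2.04, adjusted p = 0.0171) and Sds. Of all genes tested, 2.7% passed on HFD and 4.38% on SD. Fkbp5 stood at 54.6 and 28.1 CPM in HFD knockouts and at 55.5, 36.6, 44.2 and 34.8 CPM in HFD controls, and at 146, 78.5 and 95.4 CPM in SD knockouts and 64.4, 29.3 and 26.9 CPM in SD controls, so its first library was the highest of each of the 4 groups. Tsc22d3, another glucocorticoid-induced gene, stood at 71.7 and 82.6 CPM in HFD knockouts, 105, 133, 98.6 and 60.8 CPM in HFD controls, 65.7, 35.2 and 58.5 CPM in SD knockouts and 187, 49.4 and 108 CPM in SD controls, and did not pass on either diet. The part of feeding state or hour of collection in the spread of Tat was not tested.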
